A study of Mus musculus with 12 samples.

Results

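The synthesis of melatonin and dopamine in the mouse retina was examined through 9 genes: Aanat and Tph1 of the melatonin route, Th, Ddc, Gch1, Slc18a2 and Slc6a3 of the dopamine route, and the dopamine receptor genes Drd4 and Drd2. They were taken by gene symbol from the 37991 genes of the deposited tables, and all 9 were found. The libraries came from whole retinas of 8 week old male mice in 4 classes with 3 libraries each. F0 C57BL/6J (B6) is the standard inbred laboratory strain and F0 Cast/EiJ (Cast) an inbred strain of wild origin. F1 B6xCast mice had a C57BL/6J father and a Cast/EiJ mother, and F1 CastxB6 mice a Cast/EiJ father and a C57BL/6J mother. The labels name no transgene and no treatment. A library pooled 6 to 8 retinas, so that its value is an average over animals, and p-values measure the spread between such pools. Tissue was taken late in the evening, so the levels stand for that part of the daily cycle only.

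Melatonin and dopamine signal night and day to the retina. Photoreceptors make melatonin from tryptophan by way of serotonin. TPH1, tryptophan hydroxylase, takes the opening step of that route, and AANAT acetylates serotonin in the rhythmic step. C57BL/6J is a textbook example of a melatonin-deficient strain, owing to a defect of Aanat. Dopamine comes from a sparse class of amacrine cells. In these cells TH, tyrosine hydroxylase, is rate-limiting, DDC decarboxylates L-DOPA, VMAT2 (encoded by Slc18a2) loads vesicles and the transporter DAT (Slc6a3) takes dopamine back up. GCH1, GTP cyclohydrolase, starts the synthesis of tetrahydrobiopterin, the cofactor of TH and TPH1. The D4 receptor acts in photoreceptors, where dopamine lowers cyclic AMP, and the D2 receptor includes the autoreceptor of the dopaminergic cells.

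Promoter sequences are shown for Th and Slc18a2, which were both higher in Cast/EiJ, and for the receptor genes Drd4 and Drd2, which moved in opposite directions. RefSeq promoters on build GRCm38.p6 were at hand for 8 of the 9 genes, in 10 windows, with none for Aanat. Each window runs from 250 bases before the start of transcription through its opening 10 bases, and is the C57BL/6J reference sequence. Capitals mark the cAMP response element TGACGTCA, its own reverse complement, and the GC box GGGCGG, read as CCGCCC on the other strand. The E-box CACGTG, and TAATCC, bound by the photoreceptor factor CRX (GGATTA on the other strand), were also searched for.
Th, chr7:142899986-142900245, minus strand: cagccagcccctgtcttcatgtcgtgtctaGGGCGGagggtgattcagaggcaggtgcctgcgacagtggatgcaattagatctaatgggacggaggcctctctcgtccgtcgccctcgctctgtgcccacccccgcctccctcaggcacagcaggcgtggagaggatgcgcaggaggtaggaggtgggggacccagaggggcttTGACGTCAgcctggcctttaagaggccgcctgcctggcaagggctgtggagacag
Slc18a2, chr19:59260628-59260887, plus strand: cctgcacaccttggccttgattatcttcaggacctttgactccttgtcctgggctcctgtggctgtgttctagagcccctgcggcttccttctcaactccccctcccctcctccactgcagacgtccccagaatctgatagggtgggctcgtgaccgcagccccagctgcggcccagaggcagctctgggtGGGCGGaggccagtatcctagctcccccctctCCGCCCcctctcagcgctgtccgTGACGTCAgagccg
Drd4, chr7:141291768-141292027, plus strand: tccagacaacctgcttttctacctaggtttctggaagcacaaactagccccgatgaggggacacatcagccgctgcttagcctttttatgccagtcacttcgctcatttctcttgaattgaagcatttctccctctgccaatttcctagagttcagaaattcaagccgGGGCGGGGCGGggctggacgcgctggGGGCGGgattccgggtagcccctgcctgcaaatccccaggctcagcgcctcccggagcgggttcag
Drd2, chr9:49340153-49340412, plus strand: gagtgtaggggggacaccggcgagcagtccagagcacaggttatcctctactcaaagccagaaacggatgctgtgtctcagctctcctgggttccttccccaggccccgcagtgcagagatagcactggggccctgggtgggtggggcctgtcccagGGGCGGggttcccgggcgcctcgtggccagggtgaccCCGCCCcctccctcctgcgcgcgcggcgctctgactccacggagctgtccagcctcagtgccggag

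The cAMP response element stood in the windows of Th and Slc18a2 and in no other window of the 9 genes, and 1.67% of 32851 mouse promoter windows of the same length held it. Its first letter lay 45 bases before the start in Th and 4 bases before it in Slc18a2. A GC box stood in 1 copy in Th, 2 in Slc18a2, 2 in Drd2, 2 in Gch1, 3 in Slc6a3 and 3 in Drd4, of which a pair overlap, and in 2 copies in 1 of the windows of Tph1, and 33.4% of all windows held at least 1. The only E-box lay in Slc6a3 (6.34% of all windows), and none of the 10 windows held the CRX letters (6.44% of all windows). These are matches of letters and not measured binding sites, and the positions of the expression files are on another build (NCBI37).

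Expression was measured by mRNA-seq on paired reads without strand information, and 4 deposited quantities were used. FPKM, the number of fragments scaled by transcript length and library depth, allows genes to be compared with each other. The normalised count equivalent is the estimated read number of a gene, scaled so that an F0 library and a single allele of an F1 library have nearly the same total (12648792 to 13843914). Unique hits are the read pairs that map to 1 gene and, in F1 libraries, to 1 allele of it. The posterior SD gives how well the expression estimate is fixed. Unique hits ranged from 8158534 to 12363291 per library, with the lowest group median, 8234902, in F0 Cast/EiJ.

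The receptor genes were by far the most expressed of the 9. In F0 C57BL/6J the FPKM of Drd4 was 56.9 ± 14.2 (SD, n = 3), above that of 96.8% of protein-coding autosomal genes. In F0 Cast/EiJ it was 36.3 ± 4.76 (n = 3), above 93.8% of genes. Drd2 followed at 11.8 ± 1.21 FPKM in F0 C57BL/6J and 15.8 ± 0.998 in F0 Cast/EiJ. Slc18a2 had 1.64 ± 0.226 and 3.16 ± 0.545 FPKM in these strains, and Th 1.31 ± 0.276 and 2.69 ± 0.387. The libraries of Slc18a2 and Th overlapped within each strain, so their order is not resolved. The other 5 genes had means from 8.53e-07 to 0.337 FPKM in the F0 strains, all with Slc6a3 lowest, and among Aanat, Ddc, Tph1 and Gch1 the libraries of neighbours in that order overlapped. In the F1 crosses, where the level is the mean of both alleles, Drd4 had 43.5 ± 0.98 FPKM in F1 B6xCast and 42.7 ± 6.16 in F1 CastxB6, again ahead of Drd2 with 14.1 ± 0.598 and 13.6 ± 0.346.

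**Figure D1:**
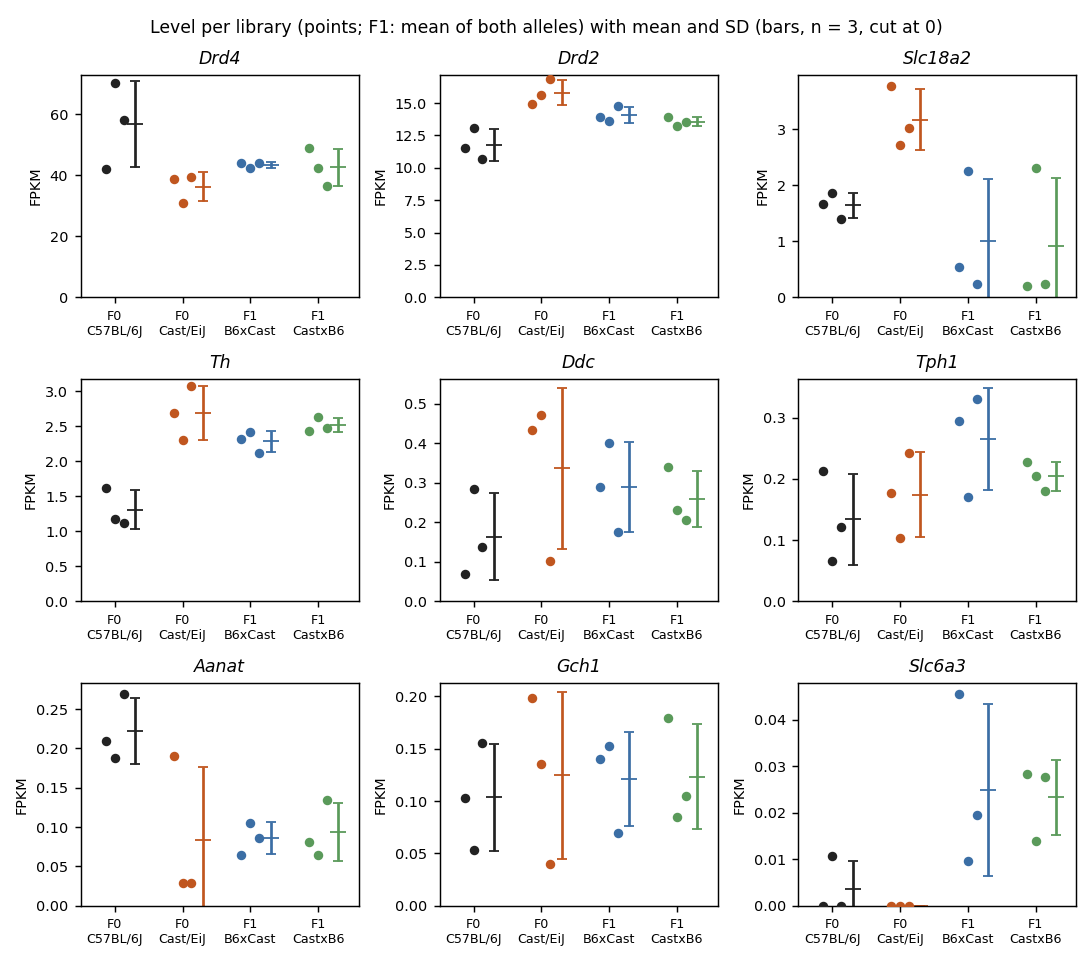
FPKM (linear axis from 0) of the 9 genes in each of 12 libraries, by class, with F1 libraries as the mean of both alleles and bars for mean and SD (n = 3). Drd4 and Drd2 lead in every class, Th and Slc18a2 are separated between the F0 strains, and the remaining 5 genes lie below 0.5 FPKM.

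Of the 5 genes of the dopamine route, Th and Slc18a2 were higher in Cast/EiJ, and the other 3 had too few reads for this test. Th had 54, 39.7 and 37 count equivalents in the 3 F0 C57BL/6J libraries and 89.3, 77.2 and 103 in F0 Cast/EiJ. Slc18a2, given in FPKM, had 1.66, 1.85 and 1.40 in F0 C57BL/6J and 3.77, 2.71 and 3.01 in F0 Cast/EiJ. In both genes every F0 Cast/EiJ library lay above every F0 C57BL/6J library. Th was 2.05-fold higher in Cast/EiJ (log2 difference 1.04, SE 0.20, adjusted p = 0.00488) and Slc18a2 was 1.94-fold higher (log2 0.95, SE 0.16, adjusted p = 0.00187). These log2 differences are on the scale of log2(count equivalents + 1), tested with limma and adjusted by the Benjamini-Hochberg method over 14452 autosomal genes, and a gene was called at an adjusted p under 0.05. In whole retina, fewer cells of a type and less RNA per cell cannot be told apart.

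The receptor genes moved in opposite directions. Drd4 had 2180, 3680 and 3010 count equivalents in F0 C57BL/6J and 2000, 1620 and 2070 in F0 Cast/EiJ. The lowest C57BL/6J library came close to the highest Cast/EiJ library, and no library of one strain lay within the range of the other. Drd4 was 1.53-fold lower in Cast/EiJ (log2 -0.62, SE 0.18, adjusted p = 0.0249). Drd2 had 543, 621 and 503 count equivalents in F0 C57BL/6J and 702, 744 and 806 in F0 Cast/EiJ, with no overlap. It was 1.35-fold higher (log2 0.44, SE 0.099, adjusted p = 0.00947). The Drd4 call was lost without F0 C57BL/6J replicate 2 (log2 -0.44, adjusted p = 0.0782 in limma), without F0 C57BL/6J replicate 3 (-0.59, adjusted p = 0.0717) and without F0 Cast/EiJ replicate 2 (-0.51, adjusted p = 0.0989).

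Hence 4 of the 9 genes passed the minimum of 10 count equivalents in at least 3 of 6 libraries, and all 4 were called, 3 higher and 1 lower in Cast/EiJ. Of all genes tested, 33.8% were called (17.2% higher and 16.6% lower), and in 48.0% the libraries of the strains did not overlap. A call by itself was therefore common between these strains.

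Markers of retinal cell types were measured beside these genes. Of all genes tested between the F0 strains, 33.8% were called (17.2% higher and 16.6% lower). In 48.0% of them the libraries of the strains did not overlap. That share is of single genes, and none was computed for sums. Of 8 amacrine cell markers, 4 were called higher in Cast/EiJ and none lower: Tfap2a (log2 0.45), Gad2 (0.54), Pax6 (0.29) and Slc6a9 (0.56). Their summed level over the 8 genes ran from 347 to 397 FPKM in F0 C57BL/6J and from 461 to 496 FPKM in F0 Cast/EiJ, without overlap, so the sum was higher in the strain in which Th, Slc18a2 and Drd2 were higher. Of 7 rod markers only Sag was called, as higher (log2 1.18), and their sum ran from 16278 to 16497 FPKM in F0 C57BL/6J and from 17310 to 18111 in F0 Cast/EiJ. Of 5 cone markers 3 could be tested and 2 were called lower, with sums of 409 to 488 FPKM in F0 C57BL/6J and 279 to 336 in F0 Cast/EiJ. The cone sum was thus lower in the strain in which Drd4 was lower, and the rod sum was higher in it. The part that cell numbers have in the strain differences was not tested. Every one of these rod, cone and amacrine markers had unique hits in each class. Other marker sums also differed between the strains without overlap. Microglia markers, 1 of 2 tested called lower in Cast/EiJ, summed to 2.48 to 3.06 FPKM in F0 C57BL/6J and 1.46 to 2.42 in F0 Cast/EiJ. Ganglion cell markers, 3 of 5 called lower in Cast/EiJ, summed to 211 to 233 FPKM in F0 C57BL/6J and 139 to 152 in F0 Cast/EiJ. Blood markers, 2 of 3 tested called lower, summed to 72.0 to 110.2 FPKM and 33.6 to 56.6 FPKM. Hba-a2 was at log2 -4.97, and Hba-a1 went the other way, uncalled at 0.52. Neither Hba-a1 nor Hba-a2 had a unique hit in the F1 libraries. Those of retinal pigment epithelium, 1 of 5 tested called lower, summed to 8.64 to 10.3 FPKM and 4.17 to 5.20 FPKM. The called marker was Ttr (log2 -1.77), and Tyrp1 (0.69) and Mitf (0.01) lay above 0, uncalled.

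The genes of melatonin synthesis gave few reads. Aanat had 3, 3 and 4 unique hits in the F0 C57BL/6J libraries and 2, 0 and 0 in F0 Cast/EiJ, so the strain known for melatonin deficiency did not have fewer Aanat reads. As RPM, reads scaled to the library total of unique hits, these were 0.304 ± 0.072 (SD, n = 3) against 0.081 ± 0.140 (n = 3), without overlap. The two-sided exact permutation test gave p = 0.1, which is the smallest that 3 against 3 libraries allow. Among 2342 low autosomal genes, with 10 to 50 unique hits over the 6 libraries, 32.7% were likewise without overlap. A library with 0 hits allows up to 0.368 on the same scale at the depth of the shallowest F0 Cast/EiJ library (3 counts, counting error only), which is above the C57BL/6J mean, so a difference in Aanat was not resolvable at this depth. Tph1 had 4, 1 and 1 unique hits in F0 C57BL/6J and 2, 1 and 4 in F0 Cast/EiJ, which overlap (exact permutation p = 0.5).

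The remaining dopamine genes were at the limit of detection as well. Ddc had 1, 7 and 2 unique hits in F0 C57BL/6J and 6, 5 and 1 in F0 Cast/EiJ (exact permutation p = 0.4). Gch1 had 5, 3 and 7 against 7, 5 and 2 (exact permutation p = 0.8). Slc6a3 had a single unique hit in the 6 F0 libraries. In these 3 genes the strains overlapped and no difference was detectable. Ddc overlaps 1700042O10Rik on the opposite strand, and reads from overlapping genes could not be assigned by strand here.

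The F1 mice carry both alleles in the same cells, so a difference that belongs to the allele itself (a cis effect) appears between the alleles of a library, and the part of the F0 difference that does not appear there is a trans effect. Th kept an allelic difference. Its B6 allele had 48.8, 56.1 and 41.6 count equivalents in F1 B6xCast and 61.6, 77.2 and 72.8 in F1 CastxB6. Its Cast allele had 103, 102 and 96.9 in F1 B6xCast and 97.6, 94.7 and 89.6 in F1 CastxB6. The Cast allele was higher in 6 of 6 libraries, and the lowest Cast value, 89.6, lay above the highest B6 value, 77.2. The allelic difference was 1.65-fold (log2 0.73, SE 0.11, adjusted p = 3.07e-05 in limma over 13414 genes). By unique hits, 61.3% of 538 Th read pairs came from the Cast allele (95% Wilson interval 57.2 to 65.4%, counting error only), against 49.5% over all polymorphic autosomal genes.

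The alleles of the receptor genes differed far less than the strains. For Drd4 the B6 allele had 2100, 2050 and 2060 count equivalents in F1 B6xCast and 2310, 2070 and 1740 in F1 CastxB6. The Cast allele had 2390, 2270 and 2420 in F1 B6xCast and 2670, 2250 and 2000 in F1 CastxB6. Within each of the 6 libraries the Cast allele was the higher, opposite to the F0 strains, by a log2 difference of 0.12 to 0.23. The mean log2 difference was 0.18 (95% interval -0.03 to 0.39, adjusted p = 0.142 in limma). This model took 1 correlation between the alleles of a library, 0.135, for all genes. Spread between libraries that both alleles share therefore stays largely in the interval, which is wide beside the 6 within-library values. The share of the Cast allele was 52.7% of 21930 unique hits (Wilson interval 52.0 to 53.3%), and edgeR on these hits, with each library as a block, called the difference (log2 0.19, adjusted p = 1.83e-14). For Drd2 the B6 allele had 603 to 628 count equivalents and the Cast allele 621 to 742 over the 6 libraries. The Cast allele of Drd2 was higher in 6 of 6 libraries, with a log2 difference of 0.12 (95% interval 0.01 to 0.23, adjusted p = 0.061) that missed the threshold in limma. It passed without F0 C57BL/6J replicate 2 (adjusted p = 0.0358) or 3 (adjusted p = 0.0454), which enter the shared estimate of the spread only. Of its 2100 unique hits 51.5% came from the Cast allele (Wilson interval 49.3 to 53.6%). Thus limma called 1 of the 3 testable genes, Th, between alleles. Of all genes tested 47.0% were called, and in 42.5% the same allele was higher in all 6 libraries.

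**Figure D2:**
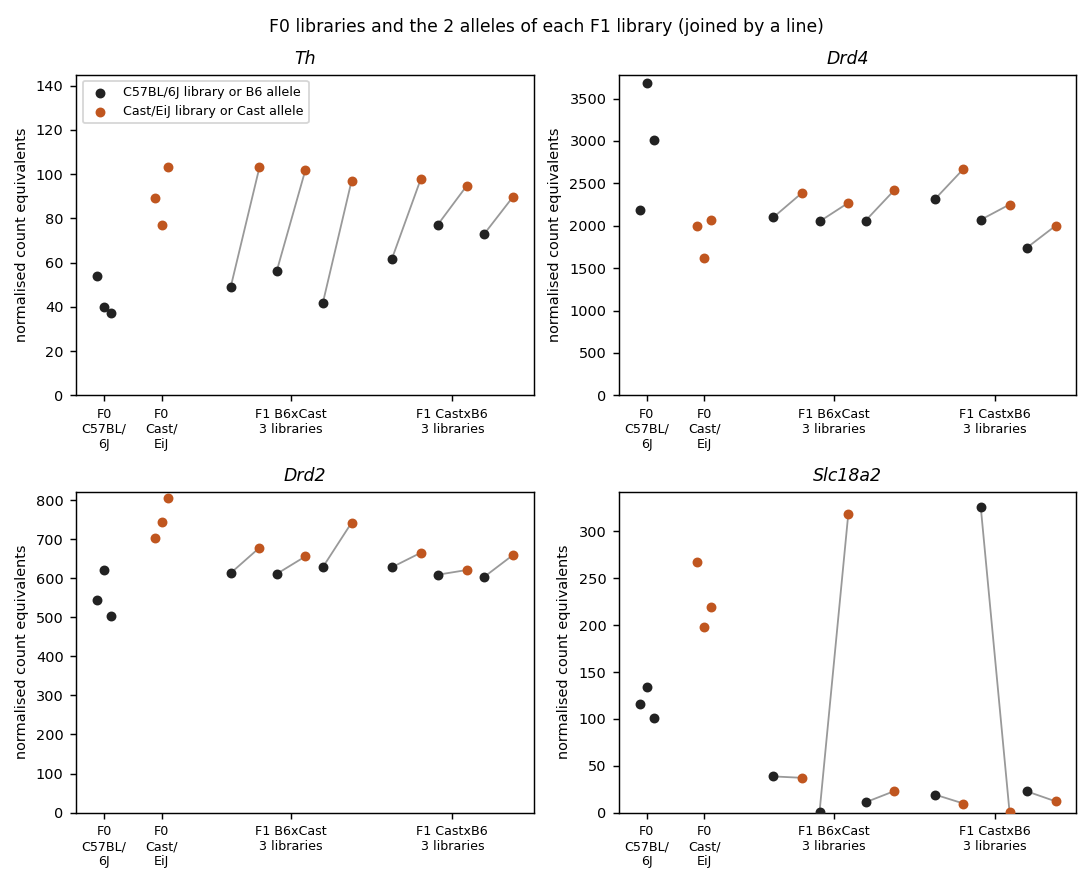
Normalised count equivalents (linear axis from 0) of Th, Drd4, Drd2 and Slc18a2 in F0 libraries and for the 2 alleles of each F1 library, joined by a line. The Cast allele of Th lies at 89.6 or more in all F1 libraries, the Drd4 alleles lie together, and the Slc18a2 alleles scatter from 0.513 to 326.

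Setting the F0 difference against the allelic difference in the same model tests the trans part. For Drd4 this part was a log2 difference of -0.80 (SE 0.18, 95% interval -1.18 to -0.42, adjusted p = 0.0066). The B6 allele averaged 2055 ± 183 in 6 F1 libraries against 2957 ± 751 in 3 F0 C57BL/6J libraries, and the Cast allele 2333 ± 222 against 1897 ± 242 in 3 F0 Cast/EiJ libraries. F0 libraries were sequenced in 1 lane and mapped to 1 strain's transcriptome and F1 libraries in 2 lanes and mapped to both, so class and processing cannot be told apart in these levels. For Drd2 the trans part was 0.32 (SE 0.093, interval 0.12 to 0.51, adjusted p = 0.0312). This call depended on the libraries used: it was lost without F0 C57BL/6J replicate 1 or 3, F0 Cast/EiJ replicate 2 or 3, F1 B6xCast replicate 2 or any F1 CastxB6 replicate, with adjusted p up to 0.104 in limma. For Th the trans part was 0.31 with an interval from -0.10 to 0.72 (adjusted p = 0.322). So 2 of 3 genes were called for a trans part, Drd2 above and Drd4 below 0, against 14.0% of all genes tested (5.64% above and 8.31% below).

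**Figure D3:**
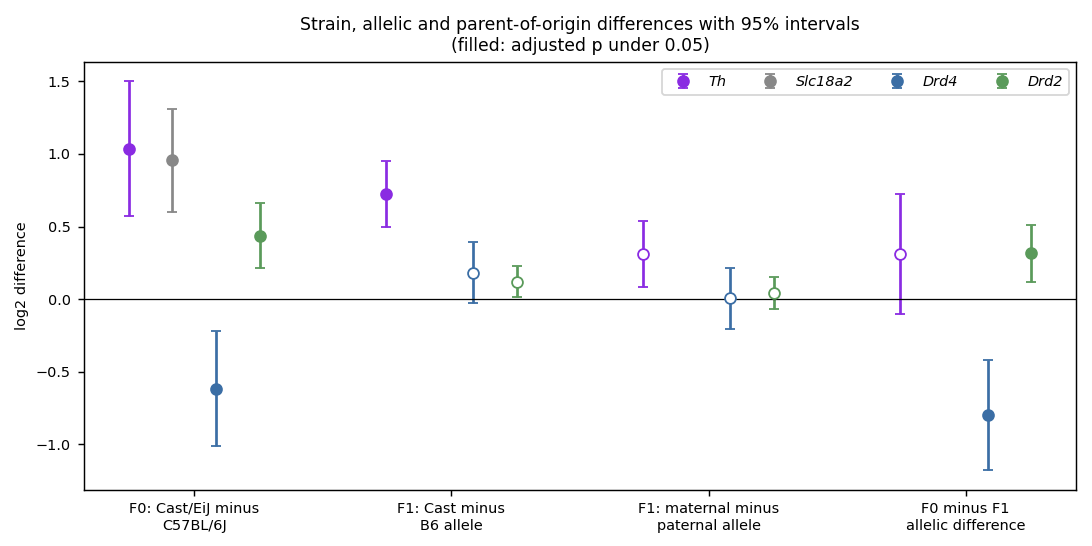
Log2 differences with 95% intervals for the strain, allelic, parent-of-origin and F0 minus F1 comparisons of Th, Slc18a2 (F0 only), Drd4 and Drd2, where filled points passed an adjusted p of 0.05. Drd4 is at -0.62 between the strains and 0.18 between the alleles, and Th is at 1.04 and 0.73.

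Slc18a2 could not be followed into the F1 mice. It had 785 unique hits in the 6 F0 libraries, but only 6 allele-specific hits in the 6 F1 libraries, 0.764% of the F0 number, where the median of 10693 genes with comparable reads was 121%. In F1 B6xCast replicate 2 its 3 hits were from the Cast allele, which then received 319 count equivalents against 0.513 for the B6 allele. In F1 CastxB6 replicate 2 its 3 hits were from the B6 allele, which received 326 against 0.534. The other 4 F1 libraries had no hit and 9.69 to 38.6 count equivalents per allele, with posterior SDs of 3.53 to 5.12 natural log units against 0.0759 to 0.107 in F0. The summed F1 level thus ran from 29 to 326.5, and the F1 values of this gene are not read here as levels.

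The reciprocal crosses ask whether a gene depends on the parent it came from. In the sum of both alleles 7 genes reached the minimum, and none was called between F1 B6xCast and F1 CastxB6, where 0.0401% of all genes were called by limma. At an unadjusted p under 0.05 none of the 7 passed either, the smallest p being 0.171 for Th. Slc18a2 passed the minimum only by the values described above (log2 0.43, SE 1.10), so the test says nothing about it. None of the 3 genes testable for maternal against paternal allele was called, where 0.492% of genes were. Th came nearest, with a log2 difference of 0.31 towards the maternal allele (SE 0.11, unadjusted p = 0.0102, adjusted p = 0.490 in limma), the only 1 of the 3 below an unadjusted p of 0.05. In edgeR on allele-specific hits the count was also 0. The log2 ratio of Cast over B6 allele in Th was 0.85 to 1.20 in the F1 B6xCast libraries, with a Cast/EiJ mother, and 0.29 to 0.66 in F1 CastxB6, with a C57BL/6J mother. The Cast allele was called higher in each cross alone (log2 1.04, adjusted p = 4.82e-05 in F1 B6xCast, and 0.41, adjusted p = 0.0458 in F1 CastxB6). The parent-of-origin value of Drd4 was 0.01 (interval -0.20 to 0.21) and that of Drd2 0.04 (-0.07 to 0.15).

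Th and Ddc lie near genes known for imprinting, the silencing of an allele by its parental origin. Th is at chromosome 7, 150078657 to 150117033, minus strand (NCBI37), and Igf2, an insulin-like growth factor expressed from the paternal allele in many tissues, lies at 149836673 to 149852721, on the side of lower coordinates. In these retinas the maternal minus paternal log2 difference of Igf2 was -1.86 (SE 0.14, adjusted p = 1.57e-07). The 3 genes tested on the other side of Th were not called, with log2 values of 0.000215 for Cd81, -0.06 for Tssc4 and 0.09 for R74862. Of the 14 genes that start or end within 250 kb of Th, 4 could be tested. Ddc is at chromosome 11, 11714104 to 11798047, minus strand, with its start 140639 bp from that of Grb10, an adaptor that dampens growth factor signalling. Grb10 was higher from the maternal allele (log2 0.80, SE 0.06, adjusted p = 1.31e-07). Ddc itself had 23 allele-specific hits in the 6 F1 libraries, 12 maternal and 11 paternal, which is below the minimum for a test. None of 15 tested neighbours of Aanat (chromosome 11, 116447746 to 116458994) and none of 23 tested neighbours of Drd4 (chromosome 7, 148477929 to 148482362) was called.

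The other low genes are given by their allele-specific hits. Aanat had 9 hits from the B6 and 5 from the Cast allele over 6 F1 libraries. Tph1 had 28 and 18, or 30 maternal and 16 paternal, over libraries of 7 to 9 hits each. Gch1 had 42 hits in all, from 2 to 14 per library. Slc6a3 had 12 hits, of which 10 were maternal, 1 to 3 in each library. With no minimum on hits, limma called Slc6a3 for parent of origin (log2 1.45, adjusted p = 0.0335), a call that rests on these 12 read pairs.

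Of 43 other genes of the pathway, 42 were analysed (Asmt, the last enzyme of melatonin synthesis, was not analysed here) and 29 could be tested between the F0 strains. Among them 11 were called, 2 higher and 9 lower in Cast/EiJ, which is near the 33.8% of all genes. Their median log2 difference was -0.09, against 0.03 for all genes tested. Below the minimum were the melatonin receptors Mtnr1a and Mtnr1b, the dopamine receptor Drd3, Dbh and Pnmt of noradrenaline and adrenaline synthesis, the transporters Slc6a4 and Slc18a1, and the transcription factors Pitx3, Lmx1b, En1 and Foxa2. Maoa and Maob, which degrade monoamines, are not autosomal and were not tested.

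The widest differences were in a transporter and in the neuronal tryptophan hydroxylase. Slc6a2, which encodes the noradrenaline transporter and also carries dopamine, had 7.8, 0.00479 and 6.88 count equivalents in F0 C57BL/6J and 175, 159 and 157 in F0 Cast/EiJ. In unique hits this was 12 against 333, with no overlap. Its log2 difference was 5.32 (SE 0.72, adjusted p = 0.000607), a value that ran from 4.21 to 7.94 over the alternative settings, with the C57BL/6J level near 0, and limma on the log expression as deposited did not call it (adjusted p = 0.0545). The alleles followed the strains, with 15 hits from the B6 and 839 from the Cast allele in the F1 libraries (log2 6.13, SE 0.45, adjusted p = 8.05e-09). Tph2, which makes serotonin in neurons, went the other way: 40.6, 45.9 and 38.8 count equivalents in F0 C57BL/6J against 3.52, 5.33 and 5.5 in F0 Cast/EiJ. It was 7.47-fold lower (log2 -2.90, SE 0.29, adjusted p = 0.000104), and in the F1 libraries 158 hits came from the B6 and 8 from the Cast allele (log2 -3.81, SE 0.24, adjusted p = 1.27e-09). With one allele near 0, these allelic values moved with the settings, from 4.91 to 8.36 for Slc6a2 and from -5.26 to -2.58 for Tph2, and they were called under 20 of 20 and 19 of 19 alternatives.

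Of the 7 genes of the tetrahydrobiopterin cofactor, 5 were called between the F0 strains, 1 higher and 4 lower in Cast/EiJ. Of all genes tested 33.8% were called, 17.2% higher and 16.6% lower. Gchfr, the feedback regulator of GCH1, was lower (log2 -1.62, SE 0.39, adjusted p = 0.0121), from 10.1 to 21.3 count equivalents in F0 C57BL/6J to 4.02 to 5.32 in F0 Cast/EiJ. The synthesis enzyme Pts (-0.63, adjusted p = 0.022) was lower, as was the recycling enzyme Qdpr (-0.49, adjusted p = 0.00533). Pcbd1, a recycling dehydratase, was higher (0.59, adjusted p = 0.0174). Between the F1 alleles these 4 genes were called in the same directions, at -1.77 for Gchfr, -0.70 for Pts, -0.68 for Qdpr and 0.56 for Pcbd1. Pcbd2 was called as well (0.61), where 47.0% of all genes tested were called between alleles. Between the F0 strains the Gchfr call was lost without C57BL/6J replicate 2 or 3, the Pts call without C57BL/6J replicate 3 or Cast/EiJ replicate 1, and the Pcbd1 call without C57BL/6J replicate 2 or 3 or Cast/EiJ replicate 3 (adjusted p up to 0.08 in limma). Leaving out single F0 libraries gave between 7 (without C57BL/6J replicate 3) and 13 (without C57BL/6J replicate 1) called pathway genes in all.

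**Figure D4:**
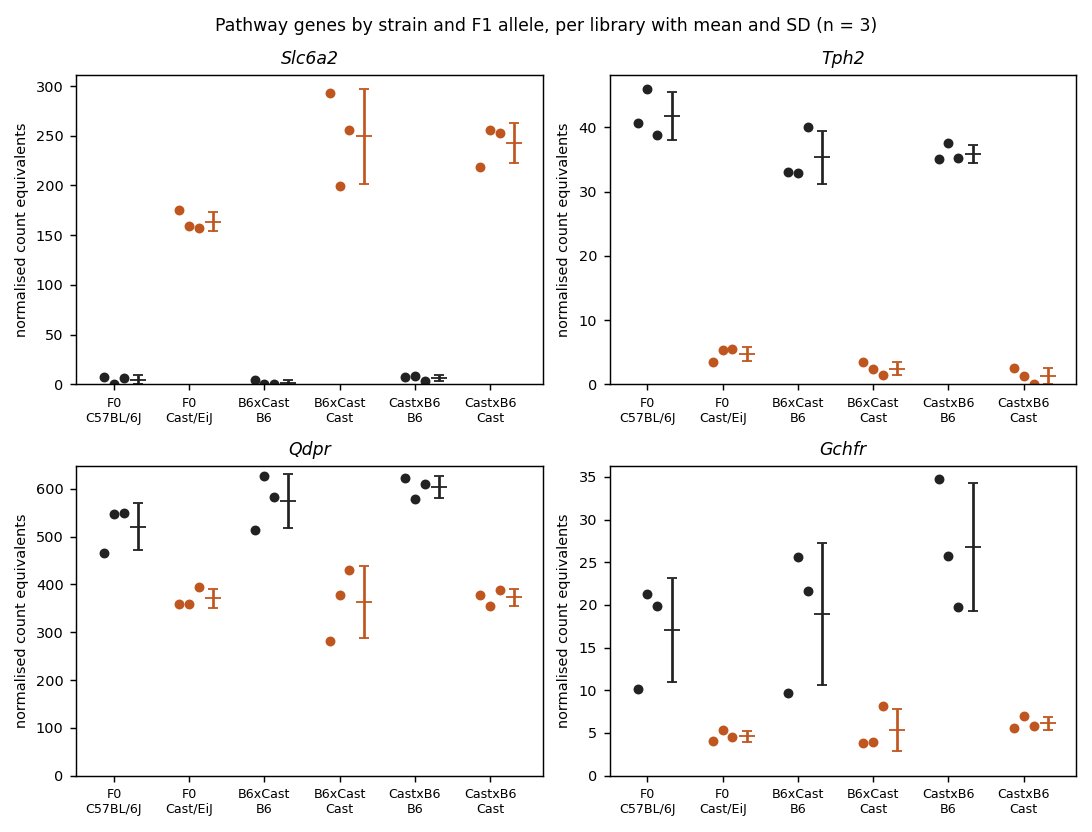
Normalised count equivalents (linear axis from 0) of Slc6a2, Tph2, Qdpr and Gchfr per library, for F0 strains and for each allele in each F1 cross, with mean and SD (n = 3). The Cast values of Slc6a2 lie between 157 and 293 and its B6 values at or below 8.44, and the other 3 genes are higher from B6.

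Receptor signalling held 11 genes, of which 3 were called between the strains, near the 33.8% of all genes, and all lower in Cast/EiJ (16.6% of all genes): Gnal, an olfactory-type G protein subunit (log2 -0.69), Adcy6, an adenylyl cyclase (-0.55), and Rgs9, the regulator of phototransduction shut-off (-0.32). Neither Drd1a nor Drd5, the other testable dopamine receptors, was called, nor were Nr4a2 and the 5 regulators Crx, Otx2, Crem, Atf4 and Creb1. Between alleles 15 of the 29 genes were called, 5 higher and 10 lower for Cast, against 47.0% of all genes. Besides those above these were Otx2 (0.24) and the G protein genes Gnai1 (0.18), Gnai3 (-0.24) and Gnas (-0.23), with Gnal at -0.26, Adcy6 at -0.72 and Rgs9 at -0.19. The Gnai1 call was lost without F1 B6xCast replicate 2 or F1 CastxB6 replicate 2, and the Gnai3 call without F1 B6xCast replicate 3 or F1 CastxB6 replicate 2 or 3. The allelic call of Gnas was kept under 19 of 20 alternatives. Gnas had only 246 allele-specific hits from the B6 and 185 from the Cast allele over the F1 libraries. A trans part was called for Gnal (-0.43) and Otx2 (-0.24).

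**Figure D5:**
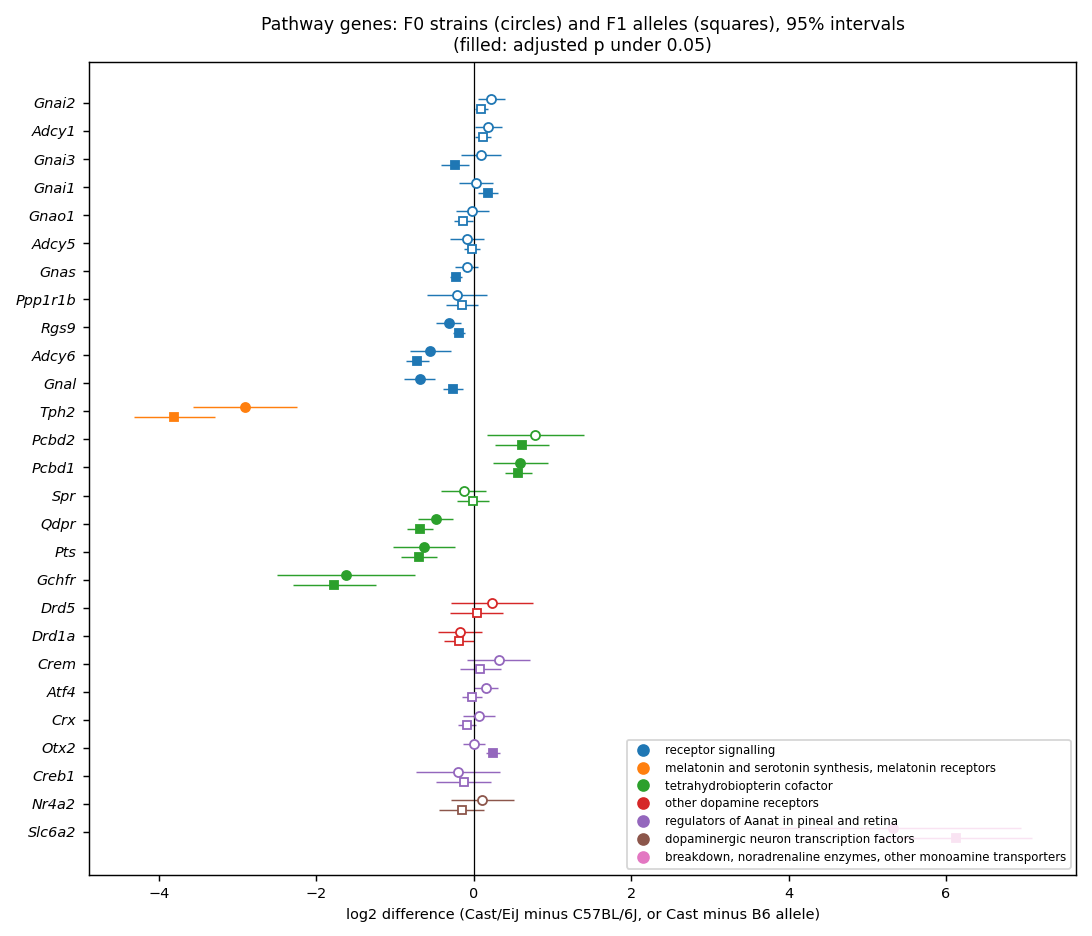
Log2 differences (x axis) of the testable pathway genes reported by name, grouped by role, between F0 strains (circles) and F1 alleles (squares) with 95% intervals, filled where the adjusted p was under 0.05. Slc6a2 at 5.32 and Tph2 at -2.90 stand farthest from 0, and most receptor signalling genes lie within 0.3 of it.

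The genes with the most similar pattern over the 12 libraries were sought for Aanat, Drd4 and Th among 10249 genes that averaged 100 or more count equivalents. For Th they were Tmem19 (Pearson r = 0.96), Ints9 (0.95) and Gm11223 (0.95), and 80 genes reached 0.9. For Drd4 they were Bhlhe23 (0.93), Pfkfb3 (0.91) and Scn7a (0.90). For Aanat they were Zcrb1 (0.91), Smcr8 (0.89) and Gpr56 (0.89), a ranking that rests on 0 to 5 reads per library. With the F1 alleles summed instead of averaged, none of these genes was among those listed, and 2602 genes reached 0.9 for Th. The libraries share strain and class, so these values describe likeness of level only.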

How the data were processed

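Trim Galore 0.2.6, Bowtie 0.12.9 and build mm9 are named in the submitters' processing notes. The authors mapped reads of each F0 strain to its own Ensembl release 67 transcriptome, and F1 reads to both, and estimated expression with MMSEQ. The deposited signal values are estimated read numbers that the authors normalised between libraries (count equivalents). The deposited natural log expression was exponentiated to FPKM, and the authors also gave its posterior SD. The deposited unique hits are whole counts of read pairs assigned by the authors to 1 gene or allele, not normalised. Replicates were not pooled by the authors. A further 36 columns, of repeated per-library values, were not used. Columns of posterior probabilities and Bayes factors hold the authors' own comparisons and were not used either.

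The 9 genes, the pathway list and the marker lists were chosen with earlier results of these data known. Groups came from the sample labels. Every one of the 9 genes was named wherever it could be tested, and of the pathway list the genes called. Log2(count equivalents + 1) was tested with limma 3.58.1 (trend) in R 4.3.3, with Benjamini-Hochberg adjustment and calls under 0.05. The F0 test and the test of F1 totals were run over autosomal genes that reached 10 count equivalents in 3 of 6 libraries. The allelic, parent-of-origin and F0 minus F1 tests came from 1 model with the library as a random block (correlation 0.135), for genes on autosomes that differ in sequence between the strains and averaged 10 or more allele-specific hits. Genes below the minimum were compared by exact permutation. Similar genes were ranked with the F1 alleles averaged, where the plan had summed them, since a sum doubles the F1 level. Alternatives were TMM factors, pseudocounts of 0.1 and 5, other minimums, the log expression, edgeR 4.0.16 on unique hits, DESeq2 1.42.0 on rounded count equivalents, a replicate block, a threshold of 0.01 and leaving out each library. The scripts were tested on simulated data. Asmt was not analysed here, and 2 genes of the pathway list enter the counts but are not reported here.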

Additional observations from a re-analysis of the deposited data

Results flagged for a closer look

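Both dopamine receptor genes differed between the F0 strains by another amount than between the F1 alleles, by the limma test of that difference itself. For Drd4 the strain difference less the allelic difference was -0.80 on the log2 scale (adjusted p = 0.0066), from -0.62 between strains and 0.18 between alleles, and it was called under each of 19 alternatives, at -1.002 to -0.62. For Drd2 it was 0.32 (adjusted p = 0.0312), from 0.44 between strains and 0.12 between alleles, and it was called under 10 of 19 alternatives, at 0.24 to 0.40. In groups of 6 F1 libraries no value of Th, Drd4 or Drd2 stood apart from the others by Dixon's criterion.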

How the results depend on the processing

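The F0 calls of Th (log2 0.93 to 1.20) and Slc18a2 (0.84 to 1.06) were kept under 15 of 15 alternatives, and the allelic call of Th (0.67 to 0.77) under 20 of 20. With no filter on low values 2 of the 9 genes were called between F0 strains (Drd4 adjusted p = 0.224 and Drd2 0.0722 in limma), 7 pathway genes were called, and 1 of the 9 was called for parent of origin (Slc6a3). A threshold of 0.01 gave 7 pathway genes, and 1 gene for F0 minus F1. TMM factors gave 1 gene for F0 minus F1 (Drd2 0.24, adjusted p = 0.127). A mean of at least 50 hits called 2 genes between alleles (Drd2 joined), as did edgeR on allele-specific hits (Drd4 joined). The cause of these changes was not tested.

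Leaving out 1 library gave 3 to 4 of the 9 genes called between F0 strains, 7 to 13 pathway genes, 1 to 2 genes between alleles and 1 to 2 for F0 minus F1. Values that changed sign were uncalled throughout: for the F1 totals Slc18a2 ran from -0.44 to 1.54 (with -0.19 and -0.06 between), Ddc from -0.36 to 0.26, Gch1 from -0.25 to 0.29 (with 0.25 between) and Drd4 from -0.066 to 0.14, and for parent of origin Drd4 ran from -0.0081 to 0.016 (with -0.0049 between).

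Replicate numbers are shared between groups. Deviations of same-numbered libraries correlated at 0.33, 0.03 and 0.14 in F0 and at -0.10, -0.12 and -0.06 in F1, so the numbers were not taken as pairs. With the replicate block 4 of the 9 genes were again called between F0 strains, and over all genes 6376 against 4887. Depth limits Aanat, Tph1, Ddc, Gch1 and Slc6a3, with at most 14 hits in any library, and Slc18a2 in F1.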

Other observations

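Of the 29 pathway genes 1 was called for parent of origin, Gnas, the stimulatory G protein subunit and a known imprinted gene, against 0.492% of all genes tested. Its count equivalents ran from 8250 to 10100 for the maternal allele and from 5980 to 8090 for the paternal allele over 6 F1 libraries, without overlap (log2 0.33, adjusted p = 4.06e-05 in limma). Its allele-specific unique hits lay the other way, with 142 maternal and 289 paternal (log2 -0.98, adjusted p = 1.56e-07 in edgeR). The direction for Gnas thus depends on which of the deposited quantities is read. In the F0 libraries Gnas had 7946 unique hits in C57BL/6J and 6188 in Cast/EiJ.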
